A study of Homo sapiens with 10 samples.

Results

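The transcripts of caspases, the proteases of apoptosis, and of death factors that mitochondria release were followed in MOLT-4, a human line of T-cell acute lymphoblastic leukaemia, under MABL, an antibody against CD47. The members are all probe sets annotated to CASP2, CASP6, CASP8, CASP9 or APAF1, called the caspase side here, and to CYCS, HTRA2 or AIFM1, called the released side. They are 18 of the 22283 probe sets of the array, 14 on the caspase side and 4 on the released side, and they read 8 of the 11963 genes that the annotation names. Affymetrix human genome arrays, which read a transcript by 1 or more probe sets, were run on total RNA at 0 h, 0.5 h, 1 h, 3 h and 6 h, with 2 arrays per time and 10 in all. By the labels, every group, that of 0 h included, received 10 ug/mL MABL and 50 ug/mL GAM, an agent that is not spelled out. Time-matched untreated arrays were not analysed here, and each difference from 0 h therefore holds MABL, GAM, time in culture and handling together. The labels do not say whether replicates came from separate cultures, and the p-values then cover only the spread among these arrays, which may be technical, and the number of arrays limits the precision. In bulk RNA, fewer cells that express a gene and less RNA per cell cannot be told apart.

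Caspases are made as inactive precursors. CASP8 starts apoptosis at death receptors, CASP9 on the apoptosome that APAF1 forms with cytosolic cytochrome c, and CASP2 after DNA damage and other stress, while CASP6 is an executioner that cleaves nuclear lamins. Cytochrome c, the product of CYCS, carries electrons in respiration until permeabilized mitochondria release it. HTRA2 is a serine protease that, once released, binds and cleaves inhibitor of apoptosis proteins, and AIFM1 is a flavoprotein that can move to the nucleus in death without caspases. CD47 antibodies are reported to kill leukaemic cells without caspases, which is why the 2 sides are set against each other. The arrays read mRNA and not the cleavage of a caspase or the release of a protein.

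The promoters below belong to CYCS and CASP6, whose called falls from 0 h were the largest of the members, to CASP2, which was first higher and then lower, and to AIFM1, which shares a motif with CYCS. They are the 250 bases before the annotated start, 5′ to 3′ on the gene's strand, from RefSeq (GRCh38.p14), which held entries for 8 of the 8 genes. Capitals mark the NRF1 core GCATGCGC, the Sp1 box GGGCGG and the CCAAT box, each on either strand. The windows lie at chr7:25125261-25125510 (minus strand) for CYCS, at chrX:130165842-130166091 (minus) for AIFM1, at chr4:109703446-109703695 (minus) for CASP6 and at chr7:143288101-143288350 (plus) for the more upstream start of CASP2.
CYCS: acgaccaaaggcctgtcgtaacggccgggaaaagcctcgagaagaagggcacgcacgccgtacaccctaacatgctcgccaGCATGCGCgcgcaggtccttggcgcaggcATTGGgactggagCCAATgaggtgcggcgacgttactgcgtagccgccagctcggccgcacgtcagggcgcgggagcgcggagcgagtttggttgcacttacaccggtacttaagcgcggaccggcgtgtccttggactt
AIFM1: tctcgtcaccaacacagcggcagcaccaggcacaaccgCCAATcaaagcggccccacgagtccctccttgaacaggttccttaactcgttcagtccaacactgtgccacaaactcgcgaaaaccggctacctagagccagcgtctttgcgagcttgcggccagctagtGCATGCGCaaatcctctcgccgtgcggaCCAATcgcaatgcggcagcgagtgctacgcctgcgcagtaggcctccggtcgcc
CASP6: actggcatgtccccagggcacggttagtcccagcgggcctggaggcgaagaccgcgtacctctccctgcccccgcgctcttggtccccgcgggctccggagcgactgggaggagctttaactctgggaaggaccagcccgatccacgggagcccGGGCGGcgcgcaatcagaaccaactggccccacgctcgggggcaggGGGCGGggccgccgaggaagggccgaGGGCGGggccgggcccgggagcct
CASP2: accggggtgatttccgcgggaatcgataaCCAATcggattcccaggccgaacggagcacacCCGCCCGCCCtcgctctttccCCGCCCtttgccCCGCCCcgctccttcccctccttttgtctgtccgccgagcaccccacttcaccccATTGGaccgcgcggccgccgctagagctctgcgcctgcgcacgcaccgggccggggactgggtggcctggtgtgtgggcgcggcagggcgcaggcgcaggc
NRF1 is a regulator of nuclear genes for mitochondrial proteins, and its core lay 169 bases before the CYCS start and 82 bases before the AIFM1 start. Among the members' 13 windows these were the only ones with that core, which 2.63% of all 35116 promoter windows of this length hold. The Sp1 box was in the CASP6 window 3 times and in the CASP2 window 4 times, where 2 of the matches share bases, and 42.6% of all windows hold it. CCAAT boxes were in the CYCS, AIFM1 and CASP2 windows and in 32% of all windows. No TATAAA (10.7% of all windows) and no cyclic AMP response element TGACGTCA (1.65%) was found in these 4 windows on either strand. A match describes letters and not binding.

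Levels are square roots of the deposited scores, read as log2 signal. That reading comes from the values and is not stated by the authors, and every size below depends on it. A probe set was tested if at least 2 of the 10 arrays reached log2 5, which 4276 of 22215 (19.2%) did, and was called at a limma adjusted p under 0.05, adjusted over all 4276. Of the 18 members 9 were tested, 5 of 14 on the caspase side and 4 of 4 on the released side. Against 0 h the median level of the tested probe sets was shifted by -0.13, -0.29, -0.31 and -0.25 in order of time. The median of the changes of single probe sets was 0.015, -0.025, -0.146 and -0.143, so the typical probe set did not share the whole shift. Values relative to the array median, from a fit with equal array medians, are given beside many results. That fit raises every change from 0 h by the size of the shift, and which scale is nearer to the RNA levels was not tested. Over all tested probe sets, 82, 177, 108 and 174 were called higher and 646, 1036, 1128 and 925 lower in order of time, and relative to the array median 295, 1389, 987 and 613 higher and 656, 834, 760 and 603 lower. The 18S ribosomal RNA probe sets had means of 9.03, 10.44, 10.68, 11.20 and 11.67 from 0 h to 6 h, and their part in the results was not tested beyond a fit with their level as a covariate. Replicates correlated at 0.991 to 0.994. Of 14 T-lymphoblast markers 11 passed the filter, with CD3D at 12.24 to 12.54 and LCK at 10.20 to 10.58, while CD7, CD4 and RAG1 did not pass, and 0 of 5 B-cell, 0 of 6 myeloid and 0 of 3 erythroid and platelet markers passed. Of 6 fibroblast and epithelium markers 1 passed, the collagen gene COL1A1, at 5.06 to 5.49.

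The 2 sides did not move as blocks. On the caspase side, CASP2 was higher at 0.5 h and lower at 6 h, and CASP6 was lower at 1 h and 3 h. On the released side, CYCS was lower from 0.5 h to 3 h, HTRA2 was higher at 1 h and 6 h, and AIFM1 was called at no time. At 0.5 h, 2 of 5 tested caspase-side probe sets were higher and 0 lower, against 0 higher and 1 lower of 4 on the released side, where 17.0% of all tested probe sets were called. At 1 h the counts were 0 higher and 1 lower on the caspase side and 1 higher and 1 lower on the released side, where 28.4% of all were called. At 3 h 1 was lower on each side and 0 were higher, where 28.9% of all were called. At 6 h 2 were lower on the caspase side and 1 was higher on the released side, where 25.7% of all were called. Over all 5 times, the F test called 4 of 5 and 2 of 4, where 39.6% of all were called. With counts this small, 3 of the 5 caspase-side probe sets reading CASP2 and 2 of the 4 released-side ones reading HTRA2, the shares give no ranking of the sides. CASP2 211140_s_at passed the filter on 2 arrays of 0.5 h and 1 h, where it is highest, so its part in these counts supports nothing. The same holds for HTRA2 211152_s_at, which passed on 1 array each of 0.5 h and 6 h and adds here only to the number tested.

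**Figure D1:**
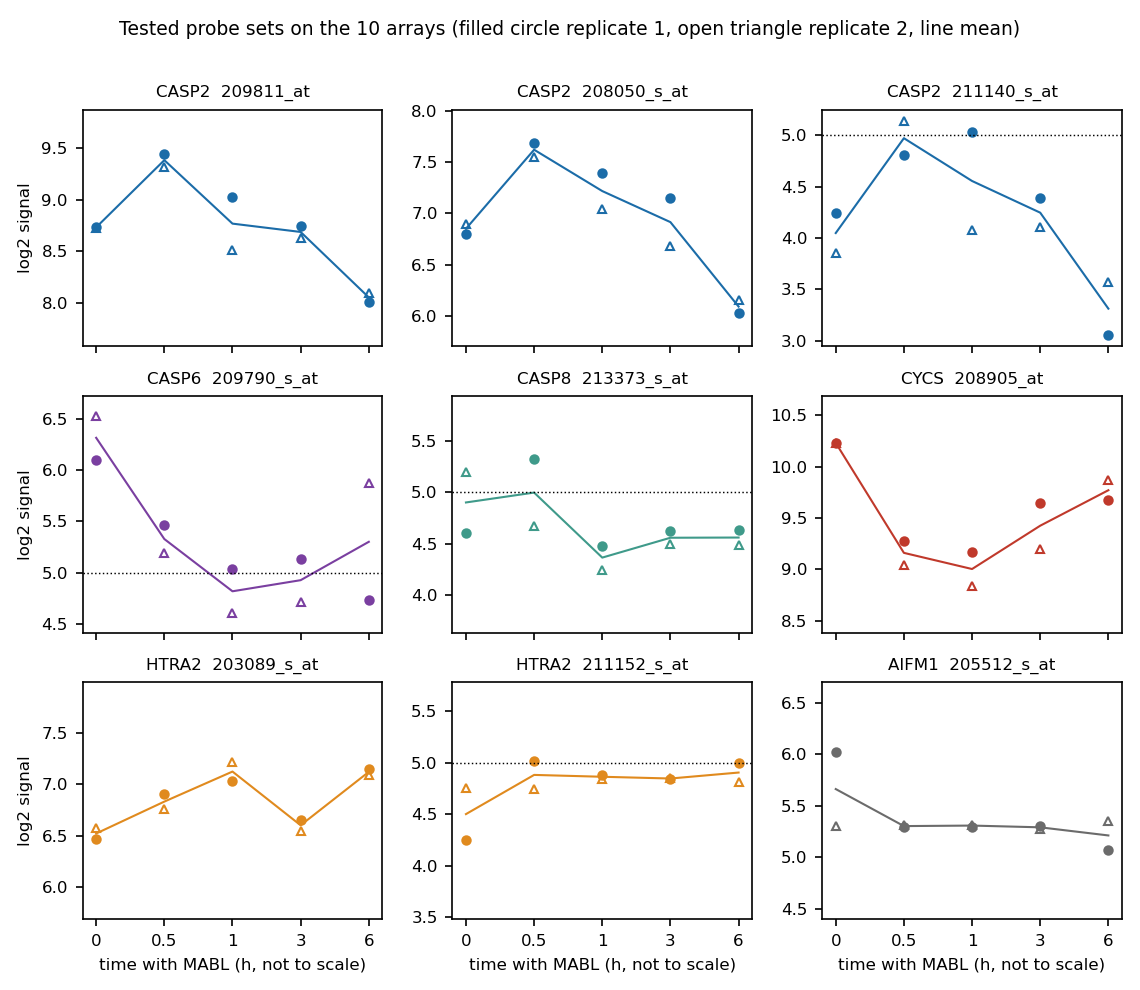
Log2 signal of the 9 tested member probe sets on every array, by time with MABL (categories, not to scale); circles are replicate 1, triangles replicate 2, the line joins means, and the dotted line is the filter level of log2 5. Each panel spans the same log2 range. CASP2 is highest at 0.5 h and lowest at 6 h, CYCS and CASP6 are highest at 0 h, and the AIFM1 mean at 0 h lies above the rest through 1 array.

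CASP2 mRNA was higher than at 0 h after 0.5 h, was not called at 1 h and 3 h, and was lower at 6 h. The brightest probe set, 209811_at, read 8.74 and 8.73 at 0 h, 9.45 and 9.32 at 0.5 h, 9.02 and 8.51 at 1 h, 8.75 and 8.63 at 3 h, and 8.004 and 8.098 at 6 h. The arrays of 0.5 h lay above and those of 6 h below all other arrays, while those of 1 h and 3 h overlapped with 0 h. Of all tested probe sets 60.6%, 68.4%, 68.5% and 66.5% did not overlap with 0 h in order of time. The change was 0.65 at 0.5 h (SE 0.16, adjusted p = 0.0275) and -0.68 at 6 h (adjusted p = 0.0171), against 0.04 at 1 h and -0.05 at 3 h (adjusted p = 0.901 and 0.87). Probe set 208050_s_at read 6.80 and 6.90 at 0 h, 7.69 and 7.55 at 0.5 h, 7.39 and 7.04 at 1 h, 7.15 and 6.68 at 3 h, and 6.03 and 6.16 at 6 h. It too was highest at 0.5 h and lowest at 6 h, and its 1 h arrays lay above both 0 h arrays. It rose by 0.77 at 0.5 h (SE 0.176, adjusted p = 0.0219) and fell by 0.76 at 6 h (adjusted p = 0.0166). At 1 h it differed by 0.37 and was not called (adjusted p = 0.173), but relative to the array median it was 0.65 higher (adjusted p = 0.00438).

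The third tested CASP2 probe set, 211140_s_at, was dimmer and crossed the filter level on 2 of 10 arrays. It read 4.25 and 3.85 at 0 h, 4.80 and 5.14 at 0.5 h, 5.03 and 4.08 at 1 h, 4.39 and 4.10 at 3 h, and 3.06 and 3.57 at 6 h. Its difference of 0.92 at 0.5 h missed the threshold (SE 0.318, adjusted p = 0.0889). Relative to the array median those at 0.5 h and 1 h passed it (1.05 and 0.79, adjusted p = 0.0128 and 0.0251). The probe set passed the filter through 0.5 h replicate 2 and 1 h replicate 1 alone, so these calls are given as values and support nothing. With values under log2 5 raised to log2 5 the differences were 0.068 at 0.5 h and 0.015 at 1 h. The remaining CASP2 probe sets lay below the filter: 34449_at ran from 3.79 to 5.55 and 209812_x_at from 2.03 to 3.22, each highest at 0.5 h and lowest at 6 h. With no filter, 209812_x_at had a difference of -0.74 at 6 h against 0 h (adjusted p = 0.00604) and of -0.88 at 6 h against 1 h (adjusted p = 0.00386). Over the 10 arrays the 5 CASP2 probe sets correlated pairwise at Pearson r of 0.844 to 0.956, a description over shared arrays, and since they read the same gene they count as 1 gene and not as 5 findings.

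Between 1 h and 6 h the brighter 2 of the tested CASP2 probe sets fell. The difference of 6 h from 1 h was -1.12 for 208050_s_at (SE 0.176, adjusted p = 0.00349) and -0.72 for 209811_at (adjusted p = 0.0155), where 23.9% of all tested probe sets were called. With no filter the adjusted p was 0.0362 for 208050_s_at and 0.0959 for 209811_at. For 211140_s_at it was -1.24 (adjusted p = 0.0255, and 0.207 with no filter). This probe set passed the filter through 0.5 h replicate 2 and 1 h replicate 1 alone, so its difference is given as a value and supports nothing. Of the 15 called changes among the members, only this fall of 208050_s_at, to a fitted ratio of 0.459, was called under all of its 18 alternatives, with adjusted p from 0.000114 to 0.0362. The call of 209811_at was absent without 1 h replicate 1 or without either 6 h array, and that of 211140_s_at without replicate 1 of 1 h or of 6 h. The value of 211140_s_at at 6 h lies below the filter level, and with values under log2 5 raised to log2 5 its difference was -0.02. For 209811_at and 208050_s_at the calls at 0.5 h were lost without any of the 4 arrays compared, with sizes that stayed at 0.59 to 0.72 and 0.70 to 0.84. Their calls at 6 h against 0 h were lost without either 0 h array or without 6 h replicate 1.

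**Figure D2:**
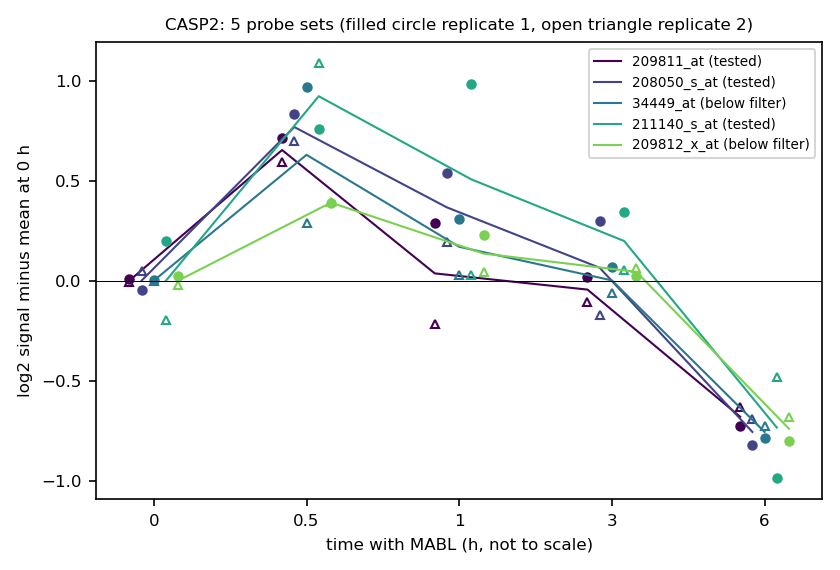
Log2 signal of the 5 CASP2 probe sets minus each probe set's own mean at 0 h, by time with MABL (not to scale); circles are replicate 1, triangles replicate 2 and lines join means. All 5 means are above 0 at 0.5 h and below -0.6 at 6 h, and the 2 arrays of 1 h stand apart in 211140_s_at, at 5.03 and 4.08.

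CASP6 mRNA fell at 1 h and 3 h, while at 0.5 h and 6 h it read below 0 h without a call. Probe set 209790_s_at read 6.10 and 6.53 at 0 h, 5.47 and 5.19 at 0.5 h, 5.03 and 4.61 at 1 h, 5.14 and 4.72 at 3 h, and 4.73 and 5.87 at 6 h. Every later array lay below both 0 h arrays, and at 6 h the 2 replicates stood further apart than at any other time. At single times 60.6% to 68.5% of all tested probe sets did not overlap with 0 h, in either direction. The change was -1.49 at 1 h (SE 0.354, adjusted p = 0.0154) and -1.38 at 3 h (adjusted p = 0.0222), with fitted ratios of 0.356 and 0.383 of the 0 h level. At both times it also met the submitters' fold rule, under which each replicate must lie under 0.5 times the geometric mean over 0 h, as 11.6% of all tested probe sets met in either direction at 1 h and 6.99% at 3 h. At 0.5 h and 6 h it differed by -0.98 and -1.01 without a call (adjusted p = 0.101 and 0.0699); relative to the array median the value at 0.5 h was -0.86 and called (adjusted p = 0.0462). The call at 1 h needed replicate 2 of both 0 h and 1 h; that at 3 h was absent without either 0 h array or 3 h replicate 2. The other CASP6 probe set, 211464_x_at, stayed at 3.32 to 4.07 and was not tested.

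CASP8, the initiator at death receptors, was not called at any time. Probe set 213373_s_at read 4.604 and 5.196 at 0 h, 5.32 and 4.67 at 0.5 h, 4.48 and 4.25 at 1 h, 4.62 and 4.496 at 3 h, and 4.63 and 4.49 at 6 h. Only 2 of the 10 arrays reached log2 5, 1 at 0 h and 1 at 0.5 h, and the replicates of these times stood apart by more than each change from 0 h. The differences from 0 h ran from -0.54 at 1 h to 0.10 at 0.5 h (SE 0.246, adjusted p = 0.154 and 0.854). Its other probe set, 207686_s_at, lay at 2.17 to 2.21.

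The apoptosome pair CASP9 and APAF1 had no tested probe set. CASP9 203984_s_at read 4.74 and 4.55 at 0 h, 5.01 and 4.69 at 0.5 h, 4.70 and 4.56 at 1 h, 4.94 and 4.70 at 3 h, and 4.96 and 4.66 at 6 h, so that every later time overlapped with 0 h. The second CASP9 probe set, 210775_x_at, and the 3 of APAF1 stayed at 2.05 to 2.42 and at 1.99 to 3.43. With no filter, the adjusted p against 0 h was 0.319 to 1 for CASP9 and 0.247 to 1 for APAF1, which does not show that either mRNA kept its level.

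CYCS fell early and was closer to its 0 h level at 6 h. Its probe set, 208905_at, the brightest of the members at 0 h, read 10.23 and 10.23 at 0 h, 9.28 and 9.05 at 0.5 h, 9.17 and 8.84 at 1 h, 9.65 and 9.20 at 3 h, and 9.67 and 9.87 at 6 h. No later array reached either 0 h array, where 60.6% to 68.5% of all tested probe sets did not overlap with 0 h at single times. The change was -1.07 at 0.5 h (SE 0.179, adjusted p = 0.00807), -1.22 at 1 h (adjusted p = 0.00196) and -0.80 at 3 h (adjusted p = 0.0131), and the fitted ratio at 1 h was 0.428. At 1 h it also met the fold rule. At 6 h the difference of -0.46 was not called (adjusted p = 0.0979), and 6 h was 0.77 higher than 1 h (adjusted p = 0.0182, and 0.119 with no filter). Relative to the array median the falls were smaller and still called, at -0.94, -0.94 and -0.49 (adjusted p = 0.000962, 0.000518 and 0.0207). The call at 1 h held without each array in turn, while that at 0.5 h was absent if replicate 1 of 0 h or replicate 2 of 0.5 h was left out, that at 3 h without either 0 h array or 3 h replicate 2, and that of 6 h against 1 h without 1 h replicate 2 or 6 h replicate 2.

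HTRA2 was higher at 1 h and at 6 h and was not called at 0.5 h and 3 h. Probe set 203089_s_at read 6.46 and 6.58 at 0 h, 6.91 and 6.76 at 0.5 h, 7.03 and 7.22 at 1 h, 6.66 and 6.55 at 3 h, and 7.15 and 7.09 at 6 h. The arrays of 1 h and 6 h were above all those of 0 h, 0.5 h and 3 h, and those of 3 h overlapped with 0 h. Of all tested probe sets 68.4% did not overlap with 0 h at 1 h and 66.5% at 6 h. Both 1 h and 6 h were 0.60 higher than 0 h (SE 0.112; adjusted p = 0.00536 for 1 h and 0.00756 for 6 h), against 0.31 at 0.5 h and 0.08 at 3 h (adjusted p = 0.102 and 0.647). Relative to the array median all 4 differences were called, at 0.44, 0.89, 0.39 and 0.85 in order of time (adjusted p = 0.0443, 0.000682, 0.0442 and 0.00163). The call at 1 h held without each array in turn and that at 6 h was lost without 0 h replicate 1. The dimmer HTRA2 probe set, 211152_s_at, read 4.24 and 4.76 at 0 h and 4.75 to 5.01 later. It differed from 0 h by 0.35 to 0.40 at the later times (SE 0.174) and was not called (adjusted p = 0.125 to 0.19). Relative to the array median it was called higher at 1 h, 3 h and 6 h (0.65, 0.66 and 0.65, adjusted p = 0.0141, 0.018 and 0.0217) and not at 0.5 h (0.51, adjusted p = 0.066). It passed the filter through 1 array each of 0.5 h and 6 h, at 5.01 and 5.00, the times of its highest means. Its calls are therefore given as values and support nothing. With values under log2 5 raised to log2 5 its differences from 0 h were 0.0069 or less. Unfloored, the differences were 0.09 to 0.15 without 0 h replicate 1, the lower array, and 0.60 to 0.66 without 0 h replicate 2.

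AIFM1 was not called at any time. Probe set 205512_s_at read 6.02 and 5.30 at 0 h, 5.30 and 5.31 at 0.5 h, 5.30 and 5.32 at 1 h, 5.30 and 5.28 at 3 h, and 5.07 and 5.35 at 6 h. The 0 h replicate 1 stood above the other 9 arrays, and 0 h replicate 2 was inside the range of the later ones. The differences from 0 h were -0.36, -0.36, -0.37 and -0.45 in order of time (SE 0.211, adjusted p = 0.313, 0.264, 0.233 and 0.156). Without 0 h replicate 1 those of 0.5 h, 1 h and 3 h were 0.0019, 0.0067 and -0.010 and that at 6 h was -0.089. Without 0 h replicate 2 they were -0.72, -0.72, -0.73 and -0.81 and called (adjusted p = 0.0261, 0.0138, 0.0161 and 0.0139), so the 0 h level of AIFM1 decides its change and 2 arrays do not settle it.

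**Figure D3:**
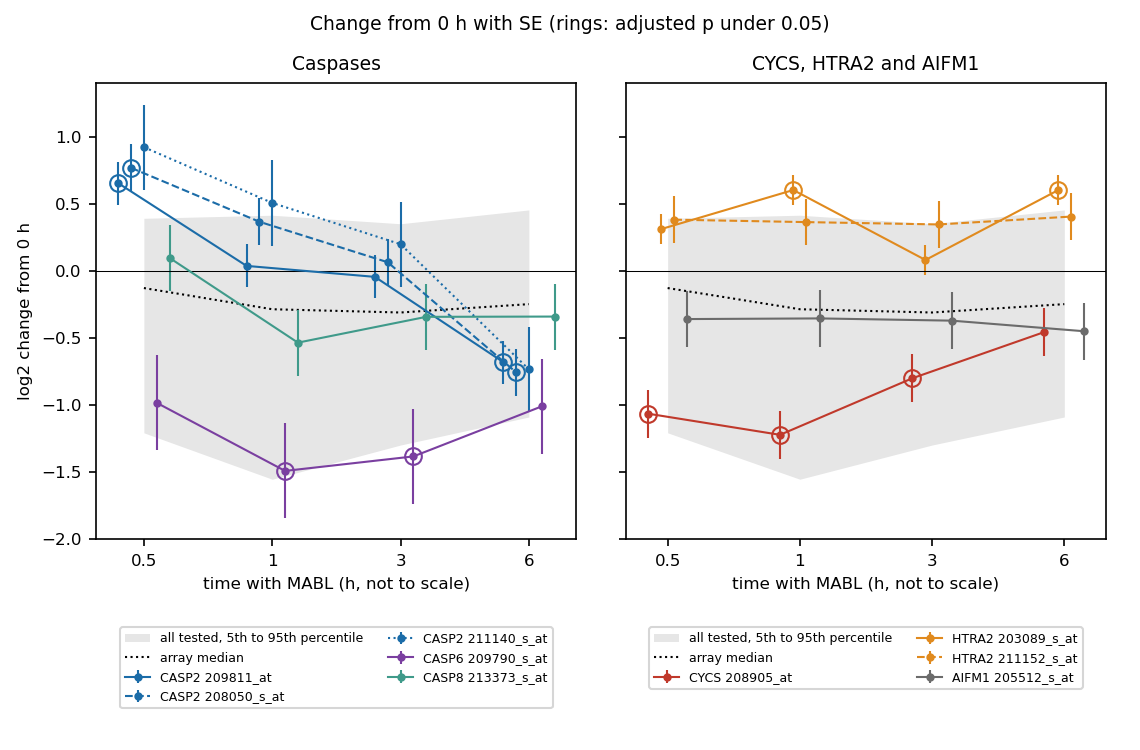
Log2 change from 0 h with its SE from limma for caspases (left) and released factors (right), by time with MABL (not to scale); rings mark adjusted p under 0.05, grey the range from the 5th to the 95th percentile of all 4276 tested probe sets and the dotted line the array median. CASP2 lies above the grey range at 0.5 h and inside it at 6 h, and the falls of CYCS stay inside it at all 4 times.

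Read against all tested probe sets, the members differed in how unusual their sizes were. At 0.5 h, where 82 probe sets in all were higher and 646 lower (295 and 656 relative to the array median), the called CASP2 changes of 0.65 and 0.77 exceeded the 95th percentile of 0.39. The 5th percentile of all changes was -1.21 at 0.5 h, -1.55 at 1 h and -1.30 at 3 h, and CYCS lay above it at each time. CASP6 lay above it at 0.5 h and 1 h and below it at 3 h. HTRA2 203089_s_at lay above the 95th percentile at 1 h (0.41) and at 6 h (0.45). The comparisons with 0 h share the 0 h arrays, and no test of 1 side against the other was made.

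Across the 10 arrays CASP6 correlated with CYCS at Pearson r of 0.81, although they belong to different sides, and the 3 tested CASP2 probe sets correlated with CYCS at -0.35 to -0.48. The dimmer HTRA2 probe set and AIFM1 correlated at -0.94, in which 0 h replicate 1 is the lowest array of HTRA2 211152_s_at and the highest of AIFM1. These are descriptions over arrays that share times and normalization. The genes whose levels were most like those of CASP2 209811_at over the 10 arrays were SF3A1, a splicing factor subunit (r = 0.965), PSPH, an enzyme of serine synthesis (0.958), and ZNF593 (0.957). For CASP6 they were CLNS1A (0.955), the ubiquitin ligase subunit SKP2 (0.950) and the ubiquitin-conjugating enzyme UBE2E1 (0.946). For CYCS they were the RNA-binding protein LSM14A (0.988), the lactate dehydrogenase subunit LDHB (0.984) and the translation initiation factor EIF1AX (0.982). For HTRA2 203089_s_at they were the chloride channel protein CLIC1 (0.929), OAZ2, an inhibitor of ornithine decarboxylase (0.911), and RBCK1, a subunit of a linear ubiquitin ligase (0.909).

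Around the members, 7 lists of 86 genes gave 38 tested genes, counted by the brightest probe set of each. The 4 other caspases read, CASP1, CASP4, CASP5 and CASP10, all lay below the filter, with brightest probe sets between 3.00 and 4.37. Of inhibitors of apoptosis and their antagonists 2 genes were tested and 0 called at any time, BIRC5 (0.25 to 0.38, adjusted p = 0.0827 to 0.228) and DIABLO (-0.09 to 0.12, adjusted p = 0.507 to 0.971). BIRC5 is survivin, and DIABLO is a mitochondrial protein that frees caspases from their inhibitors. Relative to the array median 2, 1 and 1 of them were higher at 1 h, 3 h and 6 h. Of the death receptors and partners of CASP8, 4 were tested (FADD, TNFRSF1A, DEDD and PEA15) and 0 called, with adjusted p from 0.0637 to 0.991. Relative to the array median 1, 2 and 1 were higher at 1 h, 3 h and 6 h, beside the same 1389, 987 and 613 of all tested.

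Known substrates of caspases and apoptotic nucleases were lower than at 0 h where called. Of 8 tested, 1, 3, 4 and 4 were lower in order of time and 0 were higher, with list medians of -0.11, -0.29, -0.59 and -0.50, against 0.01, -0.03, -0.15 and -0.14 over all tested. Of all 4276 tested, 646, 1036, 1128 and 925 were lower. Relative to the array median 656, 834, 760 and 603 of all tested were lower and 295, 1389, 987 and 613 higher. On that scale 1, 2, 4 and 1 of the list were lower and 0, 1, 1 and 0 higher. The higher one was LMNA, a nuclear lamin, at 1 h and 3 h (0.52 and 0.60 relative to the median, adjusted p = 0.0272 and 0.0191). PAK2, a kinase that caspases activate by cleavage, fell at all 4 later times, with changes of -2.15, -2.91, -2.31 and -1.499 in order of time (adjusted p = 0.0131, 0.00196, 0.00673 and 0.0353), and its mean level was 7.51, 5.37, 4.600, 5.20 and 6.01 from 0 h to 6 h. Its mean at 1 h lies below the filter level. PARP1, a DNA repair enzyme, fell at 1 h, 3 h and 6 h, with changes of -0.77, -0.78 and -0.52 (adjusted p = 0.00352, 0.00461 and 0.0204), of which that at 6 h was not called relative to the array median (-0.28, adjusted p = 0.124). LMNB1, another lamin, fell at 3 h and 6 h (-0.82 and -0.73, adjusted p = 0.0197 and 0.0316). By its brightest probe set SPTAN1, a spectrin of the membrane skeleton, fell at 1 h and 3 h (-0.68 and -0.80, adjusted p = 0.0334 and 0.0192). The calls of LMNB1 at 6 h (-0.48, adjusted p = 0.0543) and of this SPTAN1 probe set at 1 h (-0.40, adjusted p = 0.0586) were absent relative to the array median. A dimmer SPTAN1 probe set was not called at 1 h (-0.60, adjusted p = 0.0735) and fell at 3 h and 6 h (-1.46 and -0.88, adjusted p = 0.00337 and 0.02). Both of its calls held relative to the array median (-1.15 and -0.63, adjusted p = 0.00092 and 0.0167). Its mean of 4.59 at 3 h lies below the filter level. ENDOG, a mitochondrial nuclease, differed by -0.03 to 0.07 and was not called (adjusted p = 0.702 to 0.943).

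Regulators of the apoptosome gave 3, 6, 6 and 4 lower and 0 higher of 9 tested in order of time, and 4, 4, 5 and 2 lower and 0 higher relative to the array median. Among all 4276 tested, lower calls outnumbered higher ones at each of these times (646, 1036, 1128 and 925 against 82, 177, 108 and 174). Relative to the array median they clearly did so only at 0.5 h. By its brightest probe set HSPA4, a chaperone of the HSP110 family, fell at all 4 later times (-1.42, -1.49, -1.61 and -1.09, adjusted p = 0.00133, 0.000559, 0.000777 and 0.000819). A dimmer HSPA4 probe set fell at 0.5 h, 1 h and 3 h (-1.10, -0.94 and -0.94, adjusted p = 0.0195, 0.0229 and 0.0236). At 6 h it was not called (-0.58, adjusted p = 0.12). The chaperone HSP90AA1 fell at 0.5 h, 1 h and 3 h (-1.14, -1.22 and -1.52, adjusted p = 0.0091, 0.00311 and 0.00262), with a difference of -0.19 at 6 h that was not called (adjusted p = 0.527). TRIAP1, an intermembrane space protein of lipid transfer, fell at 1 h, 3 h and 6 h (-0.47, -0.77 and -0.93, adjusted p = 0.0241, 0.00433 and 0.00249). ANP32B fell at the same times (-0.53, -0.80 and -0.59, adjusted p = 0.00954, 0.00294 and 0.00838). Of these, TRIAP1 at 1 h (-0.19, adjusted p = 0.212) and ANP32B at 1 h and 6 h (-0.24 and -0.34, adjusted p = 0.134 and 0.0773) were not called relative to the array median.

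Other proteins of the intermembrane space or of cytochrome c handling gave 1 lower of 5 tested at each time and 0 higher. Of all 4276 tested, 646, 1036, 1128 and 925 were lower in order of time. This was YME1L1, an inner membrane protease, at 0.5 h, 1 h and 3 h (-1.27, -1.80 and -1.49, adjusted p = 0.0165, 0.00214 and 0.00626), and PARL, the rhomboid protease of that membrane, at 6 h (-0.52, adjusted p = 0.0474). At 6 h the brightest YME1L1 probe set was not called (-0.43, adjusted p = 0.288). A dimmer one was called lower there (-1.24, adjusted p = 0.0238), also relative to the array median (-0.99, adjusted p = 0.0189). Its mean was 6.18 at 0 h and lay below the filter level at each later time. CYC1, the cytochrome c1 of respiratory complex III and the redox partner of cytochrome c, differed by 0.24 to 0.41 and was not called (adjusted p = 0.0654 to 0.313). Relative to the array median 0, 3, 2 and 1 of the 5 were higher and 1, 1, 1 and 0 lower in order of time. On that scale CYC1 was higher at 1 h, 3 h and 6 h (0.60, 0.72 and 0.51, adjusted p = 0.00664, 0.00399 and 0.0226) and PARL was not called at 6 h (-0.27, adjusted p = 0.18). Of 10 genes of mitochondrial permeability and death without caspases, 1, 3, 2 and 1 were lower in order of time and 0 higher, with list medians between -0.15 and 0.01. VDAC3, a channel of the outer membrane, fell at 0.5 h, 1 h and 3 h (-0.53, -0.76 and -0.61, adjusted p = 0.0155, 0.00196 and 0.00626) and differed by -0.08 at 6 h (adjusted p = 0.631). VDAC2 fell at 1 h, 3 h and 6 h (-0.57, -0.58 and -0.60, adjusted p = 0.0207, 0.0212 and 0.0192), and VDAC1 at 1 h (-0.81, adjusted p = 0.0346). With equal array medians, 0, 4, 0 and 0 of these 10 were higher and 1, 2, 0 and 0 lower. All 3 calls of VDAC2 were then absent (-0.29, -0.27 and -0.35, adjusted p = 0.0741, 0.104 and 0.0577), as was that of VDAC3 at 3 h (-0.30, adjusted p = 0.0624). Of all 4276 tested, 295, 1389, 987 and 613 were higher and 656, 834, 760 and 603 lower on that scale. By brightest probe sets, the direction of this list at 1 h thus depends on the scaling, as does that of all tested probe sets. Some dimmer probe sets of the list kept lower calls with equal array medians. These were VDAC3 at 3 h (-0.79, adjusted p = 0.0068) and PPIF at 6 h (-0.73, adjusted p = 0.0147). VDAC1 kept them at 0.5 h, 1 h and 3 h (-0.53, -0.66 and -0.62, adjusted p = 0.0293, 0.00605 and 0.0114). A dimmer CTSB probe set was higher at 1 h and 3 h (0.39 and 0.44, adjusted p = 0.045 and 0.037).

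**Figure D4:**
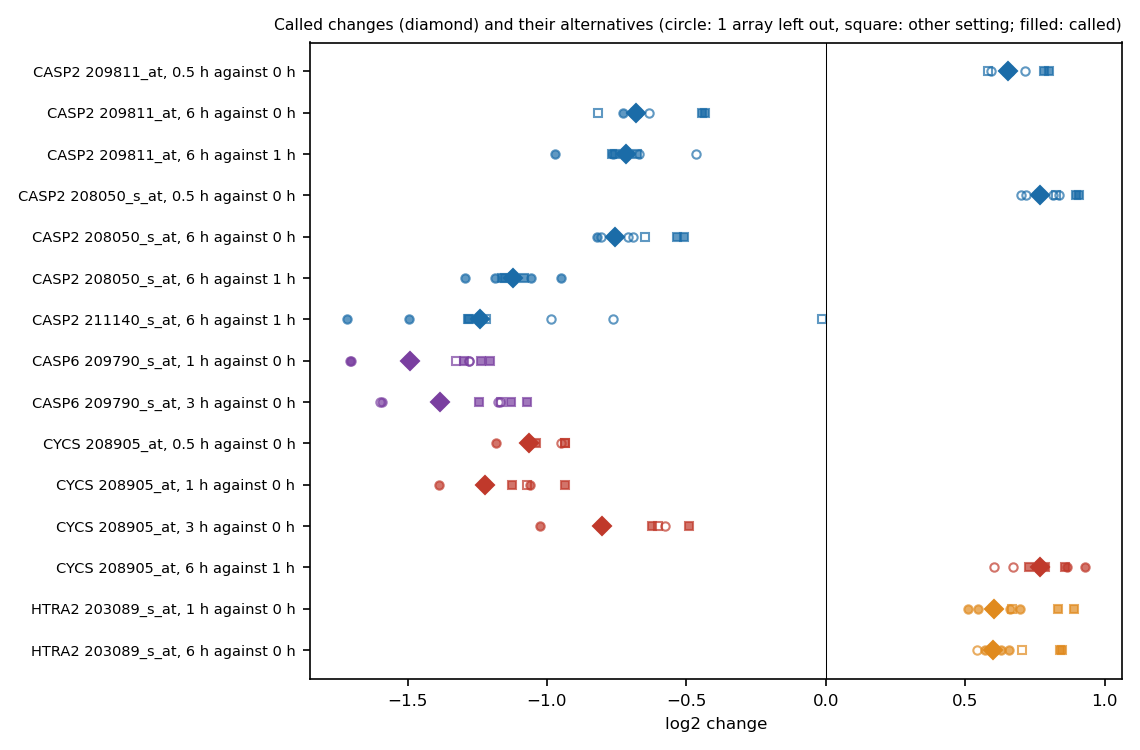
The 15 called changes of the member probe sets (diamonds, log2 change) with their values under the alternatives other than log2 of the scores. That setting is on another scale and is not drawn. Circles leave out 1 array, squares change another setting, and filled symbols are called. None of the 15 changes sign, and the fall of CASP2 208050_s_at between 1 h and 6 h, at -1.12, has filled symbols only.

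Of all 4276 tested probe sets, 17.0%, 28.4%, 28.9% and 25.7% were called against 0 h in order of time. At 6 h against 1 h the share was 23.9%. The 45 member changes tested were 9 probe sets in 5 comparisons. Of these 15 were called, counting CASP2 211140_s_at at 6 h against 1 h, whose call supports nothing. Their alternatives gave 269 values, of which 212 were called in the same direction. The calls at 1 h of CYCS and of HTRA2 203089_s_at were lost under 1 alternative each, the fit with an 18S covariate, which gave changes of -1.07 and 0.67 (adjusted p = 0.0861 and 0.0995). That fit called 9, 87, 0 and 6 of the 4276 probe sets at 0.5 h, 1 h, 3 h and 6 h against 0 h, and the sizes of CYCS stayed at -0.94 at 0.5 h and -0.60 at 3 h.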

How the data were processed

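The authors deposited 1 score per probe set and array; the submitters' processing notes name GCRMA, which subtracts a background modelled on probe sequence, normalizes the arrays and summarizes each probe set. Its version, the scale and later steps are not given in the sources used here. The deposited scores ran from 1.25e-05 to 238.1 and their square roots to 15.43. Square roots were read as log2 signal from this range, and every fold rests on it. The 68 control probe sets were kept out of the tests. Genes were named from probe sets with 1 symbol (19071; 1043 had several and 2169 none). Columns not used numbered 0. No depth exists for arrays.

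The changes were fitted over the 10 arrays together in limma 3.58.1 (R 4.3.3; lmFit, eBayes), with time as a factor and no covariate (5 residual degrees of freedom, prior SD 0.139), Benjamini-Hochberg adjusted within each comparison over 4276 probe sets and tested on simulated data. All probe sets of the members were named. List genes were named by up to 4 per list with the largest test statistic among those called, and a few uncalled ones (BIRC5, DIABLO, FADD, TNFRSF1A, DEDD, PEA15, ENDOG, CYC1) were added after their values were seen. Genes alike were the 3 with the highest Pearson r for each member whose brightest probe set the F test called. The members and lists were chosen with earlier results of these data known. Same-numbered replicates correlated at -0.231 to 0.147 in their deviations from the group means, with 2 of 10 pairs over 0.1, so the numbers do not pair the samples. The alternatives were log2 of the scores (plus 0.01), equal array medians, renewed quantile normalization, no filter, a filter at log2 6, a floor at log2 5, the replicate block, the 18S level as a covariate and each array left out.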

Additional observations from a re-analysis of the deposited data

Results flagged for a closer look

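CASP2 and CYCS differed between 1 h and 6 h of MABL by a test of the difference itself, limma over all 4276 tested probe sets. The change from 0 h at 6 h minus that at 1 h was -0.72 for CASP2 209811_at (-0.68 at 6 h, 0.04 at 1 h, adjusted p = 0.0155, and 0.0959 with no filter). It was -1.12 for 208050_s_at (-0.76 at 6 h, 0.37 at 1 h, adjusted p = 0.00349, and 0.0362 with no filter). For 211140_s_at it was -1.24 (-0.73 at 6 h, 0.51 at 1 h; adjusted p = 0.0255, and 0.207 with no filter). That probe set passed the filter through 1 array each of 0.5 h and 1 h, and its 6 h arrays read 3.06 and 3.57, below the filter level, so its value supports nothing. In each of the 3, both arrays of 6 h lay below both arrays of 1 h. Of all tested probe sets 64.4% had arrays of 6 h and 1 h that do not overlap, and 23.9% were called. For CYCS the difference was 0.77 (-0.46 at 6 h, -1.22 at 1 h, adjusted p = 0.0182, and 0.119 with no filter), and both arrays of 6 h lay above both of 1 h. The 18S signal averaged 11.67 at 6 h and 10.68 at 1 h, and with that level as a covariate the differences were -0.77 (adjusted p = 0.0433), -1.08 (0.0177), -1.22 (0.0858) and 0.86 (0.0396) in the same order.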

How the results depend on the processing

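None of the 15 called member changes turned sign under any alternative, and 27 values of uncalled ones did. Counts of called probe sets on the caspase side were 2, 1, 1 and 2 at 0.5 h, 1 h, 3 h and 6 h against 0 h, 3 at 6 h against 1 h and 4 in the F test. On the released side they were 1, 2, 1, 1, 1 and 2 in the same order. With log2 of the scores, which called 558 of all 4276 at 0.5 h against 728 with square roots, the caspase side had 1 at 0.5 h. With equal array medians it had 4 at 0.5 h and 3 at 1 h, and the released side 2 at 0.5 h, 3 at 3 h and 2 at 6 h. On that scale 951, 2223, 1747 and 1216 of all 4276 were called in order of time. The counts include CASP2 211140_s_at at 0.5 h and 1 h and HTRA2 211152_s_at at 3 h and 6 h, whose calls support nothing. With renewed quantile normalization the caspase side had 2 at 1 h and 2 at 3 h, and the released side 2 at 0.5 h and 2 at 3 h. It called 935, 1851 and 1572 of all 4303 then tested at 0.5 h, 1 h and 3 h. With no filter, which tests 22215 probe sets, the caspase side had 0 at 0.5 h, 1 h and 3 h and 1 at 6 h, and the released side 0 at 0.5 h, 3 h and 6 h against 1 h and 1 in the F test. That setting called 307, 871, 680 and 676 of all against 0 h in order of time, 482 at 6 h against 1 h and 834 in the F test. With the 18S level as a covariate both sides had 0 at every time against 0 h, where 9, 87, 0 and 6 of all 4276 were called. The caspase side then had 2 in the F test, where 785 of all were called. The cause of these moves was not tested. The replicate block, with numbers that do not pair the samples, left 2, 1, 1, 2, 3 and 3 calls on the caspase side and 1, 2, 1, 1, 1 and 2 on the released side, with 738, 1197, 1247, 1137 and 1053 of all probe sets called, against 728, 1213, 1236, 1099 and 1022 without it.

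Leaving out an array leaves a time with 1 array, and the calls over all tested probe sets changed then as well as those of the members. Counts of called members are therefore not read from those fits. Uncalled values that turned sign with the 18S covariate were CASP2 209811_at at 1 h (-0.049), CASP8 at 0.5 h (-0.13), HTRA2 203089_s_at at 6 h against 1 h (0.036), HTRA2 211152_s_at at 3 h (-0.030), 6 h (-0.053) and 6 h against 1 h (-0.13), and AIFM1 at 0.5 h (0.044), 1 h (0.12), 3 h (0.25), 6 h (0.30) and 6 h against 1 h (0.19). CASP2 209811_at at 3 h turned to 0.27 with equal medians and 0.25 with renewed quantile normalization, which also gave 0.0079 for HTRA2 203089_s_at at 6 h against 1 h. With 1 array left out, values ran through 0 for CASP2 209811_at at 1 h (-0.22 to 0.29) and 3 h (-0.11 to 0.016), 208050_s_at at 3 h (-0.17 to 0.30), 211140_s_at at 3 h (-0.00027 to 0.40) and CASP8 at 0.5 h (-0.23 to 0.42). They did so at 6 h against 1 h for CASP6 (-0.087 to 1.05), HTRA2 203089_s_at (-0.095 to 0.090) and 211152_s_at (-0.055 to 0.14) and AIFM1 (-0.24 to 0.044), and for AIFM1 at 0.5 h (-0.72 to 0.0019) and 1 h (-0.72 to 0.0067). Dim signal limits the rest: CASP9 and APAF1 had no tested probe set, and a floor at log2 5 left 0.068 of the 0.92 of CASP2 211140_s_at at 0.5 h.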
